A study of Mus musculus with 4 samples.

Results

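Genes that mark neural progenitors and neurons were compared between mouse epiblast stem cells and cells converted toward an embryonic stem cell state. The 9 genes, Map2, Nes, Tubb3, Sox1, Pax6, Pax3, Neurog2, Olig2 and Hes5, were chosen by name and were found through the gene symbols of the array platform, as 9 of 16593 genes on the array. They had 14 probes in all, and where a gene had several, the brightest by mean log2 intensity over the 4 arrays stands for it. The converted cells, labelled parnate/mAMFGi, are given the cell type converted mouse ESCs; what mAMFGi stands for is not spelled out. Parnate is tranylcypromine, an inhibitor of the histone demethylase LSD1. The converted cells were grown in medium with 10% fetal bovine serum and LIF at 1000 units/ml, and the labels do not say whether parnate or mAMFGi was present at harvest. They were set against EpiSCs, pluripotent cells of the postimplantation epiblast, grown in 20% knockout serum replacement with bFGF at 10 ng/ml. Both groups grew on irradiated mouse embryonic fibroblasts, and each has 2 arrays that the labels call biological replicates. The labels name neither the EpiSC line nor a clone, nor whether replicates came from separate cultures. The p-values therefore rest only on the spread between these samples, which may be technical. In the limma fits, that spread is pooled in part over all probes. Medium and conversion cannot be told apart.

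Neural identity is built in steps. Sox1 and Pax6 mark the neural plate, Notch signalling through Hes factors holds cells as progenitors, proneural factors such as Neurog2 drive them to become neurons, and neurons then build a cytoskeleton with beta-III tubulin (Tubb3) and MAP2. EpiSCs sit close to the point at which the epiblast chooses between ectoderm and mesendoderm. Nestin, the intermediate filament of neural progenitors, is also made by cells that are not neural.

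Values are deposited intensities on a linear scale that keeps a background level, so that folds of dim probes are understated. Array medians were 52.0 and 52.0 in parnate/mAMFGi cells and 50 and 50.3 in EpiSCs, with lowest values of 25.5 to 27.5 on the 4 arrays. Log2 intensities correlated across probes, which are not independent replicates, at 0.998 between the parnate/mAMFGi arrays and 0.996 between the EpiSC arrays. Of 11 measured ES cell markers, 9 rose in parnate/mAMFGi cells and 0 fell (limma with Benjamini-Hochberg adjustment), and of 12 EpiSC markers 4 rose and 6 fell. Among all genes 20.2% rose and 21.2% fell. Pou5f1 read 10740 and 9657 in parnate/mAMFGi cells, against 9628 and 10913 in EpiSCs. Both groups thus kept this pluripotency marker, and the ES cell markers separated them.

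Map2 and Nes, the neuronal and progenitor cytoskeleton genes, were the neural markers that read well above the array medians in EpiSCs, and both were lower in parnate/mAMFGi cells. Hes5 fell slightly near the array median. Sox1, Pax6, Pax3, Neurog2, Olig2 and Tubb3 did not pass the test and read at or below the array median on every array. In limma with Benjamini-Hochberg adjustment over all 25697 probes, 3 of 9 genes were called lower, where 21.2% of all 16593 genes were, and 0 of 9 were called higher, where 20.2% of all genes were. In either direction this was 3 of 9, where 41.5% of all genes were called. By probe, 5 of 14 were called lower, where 18.7% of all probes were, and 0 higher, where 19.7% of all probes were (38.4% in either direction). At an unadjusted p under 0.05, limma gave 3 lower and 1 higher, and a linear model without moderation gave 2 lower and 0 higher. The share of all genes at that threshold is not given here, so these counts cannot be set against the whole array. A call together with a change of at least 2-fold was reached by 2 of the 9 genes, both lower, whereas 6.32% of all genes were so called lower and 5.11% higher. The median log2 fold change (parnate/mAMFGi minus EpiSC) was -0.03 over the 9 genes and 0.02 over all genes. No test of the set as a whole was made.

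**Figure D1:**
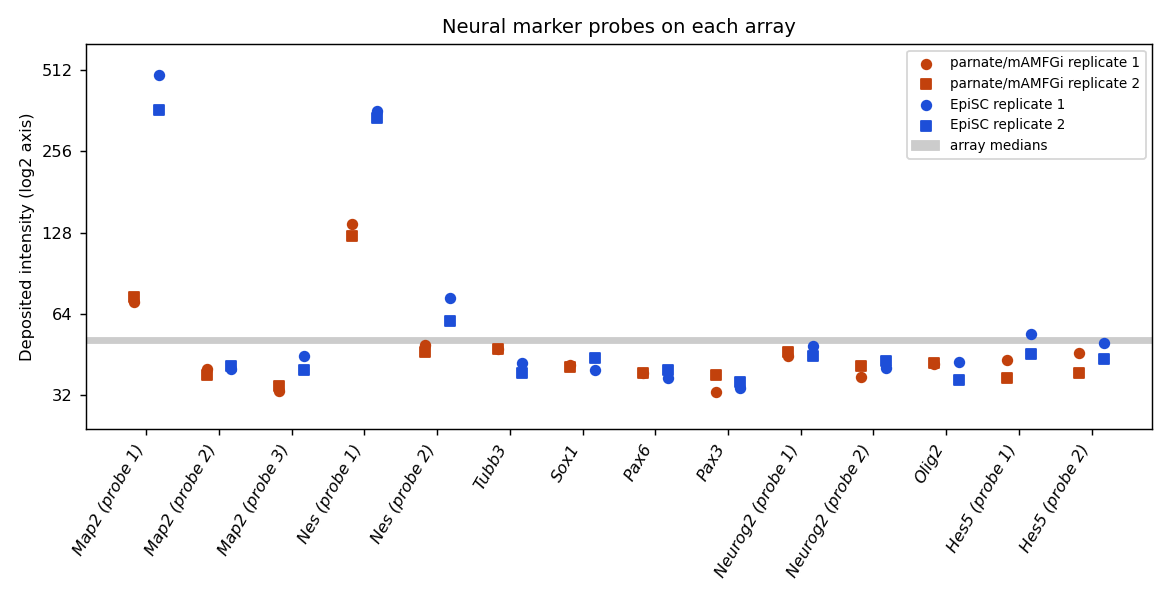
Deposited intensity (log2 axis) of the 14 neural marker probes on the 2 parnate/mAMFGi arrays (orange, left) and the 2 EpiSC arrays (blue, right), with the band of array medians at 50 to 52.0 in grey. The brightest Map2 and Nes probes stand apart between groups, and 9 of 14 probes lie at or below the median on all 4 arrays.

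Map2 encodes microtubule-associated protein 2, which stabilises microtubules in the dendrites of neurons. Its brightest probe read 71.2 and 73.8 in parnate/mAMFGi cells, against 492.5 and 365.3 in EpiSCs. The groups did not overlap, and the EpiSC arrays differed from each other by more than the converted arrays did. Mean intensities were 72.5 ± 1.84 in parnate/mAMFGi cells and 428.9 ± 89.9 in EpiSCs (SD, n = 2 arrays each). The log2 fold change was -2.55 (SE 0.12, 95% interval -2.81 to -2.28, limma adjusted p = 5.60e-10), so the intensity in EpiSCs was 5.85 times that in converted cells. In converted cells this Map2 probe read little above the array medians of 52.0.

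The other Map2 probes carried little signal in either group. The second probe read 40.0 and 38.1 in parnate/mAMFGi cells, against 40.0 and 41.1 in EpiSCs, and did not pass (log2 fold change -0.05, adjusted p = 0.729, limma). The third read 33.1 and 34.8 in parnate/mAMFGi cells, against 44.9 and 39.9 in EpiSCs, with a log2 fold change of -0.32 (adjusted p = 0.0178, limma). That call was lost when EpiSC replicate 1 (adjusted p = 0.112), parnate/mAMFGi replicate 1 (0.163) or parnate/mAMFGi replicate 2 (0.0800) was left out of the limma fit. All 3 probes are assigned to one reference transcript, and Map2 is spliced into several forms. Where the probes lie on the transcript is not given in the sources used here, and the Map2 result rests on the brightest probe. Averaged over the 3 probes, the log2 fold change of Map2 was -0.97 (SE 0.09, adjusted p = 3.13e-06, limma).

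Nes encodes nestin, an intermediate filament protein of neural stem and progenitor cells. Its brightest probe read 138.3 and 124.2 in parnate/mAMFGi cells, against 361.8 and 341.3 in EpiSCs. Replicates lay close together and the groups were well apart. Means were 131.3 ± 9.97 in parnate/mAMFGi cells and 351.6 ± 14.5 in EpiSCs (SD, n = 2 arrays each). The log2 fold change was -1.42 (SE 0.10, 95% interval -1.63 to -1.21, limma adjusted p = 2.13e-08), a 2.68-fold higher intensity in EpiSCs. Averaged over both probes, the log2 fold change of Nes was -0.95 (SE 0.09, adjusted p = 4.95e-06, limma). On the brightest probe, nestin in converted cells stayed above the array medians. The second Nes probe read 49.1 and 46.5 in parnate/mAMFGi cells, against 73.4 and 60.4 in EpiSCs, and fell by 0.48 on the log2 scale (limma adjusted p = 0.00208). That dim probe did not pass without parnate/mAMFGi replicate 2 (limma adjusted p = 0.0561), whereas the brightest Nes probe and the brightest Map2 probe passed without any 1 array.

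Hes5, a basic helix-loop-helix repressor and Notch target of neural progenitors, read near the array medians on both of its probes. The representative probe read 43.2 and 37.0 in parnate/mAMFGi cells, against 54.0 and 45.4 in EpiSCs, a log2 fold change of -0.31 (SE 0.11, limma adjusted p = 0.0414). The nearest arrays of the 2 groups lay closer together than the replicates of either group. In limma the adjusted p of Hes5 became 0.277 when EpiSC replicate 1 was left out, 0.0575 when parnate/mAMFGi replicate 1 was, and 0.402 when parnate/mAMFGi replicate 2 was, so the call did not hold in these cases. It was also lost after normexp background correction with offset 50 (adjusted p = 0.0727) and with a pseudocount of 16 (adjusted p = 0.0925), in a range of 0.00778 to 0.402 over 14 alternatives. The second Hes5 probe read 45.9 and 38.9 in parnate/mAMFGi cells, against 50.2 and 43.5 in EpiSCs, and did not pass (adjusted p = 0.366, limma). Averaged over both probes, Hes5 did not pass either (log2 fold change -0.23, limma adjusted p = 0.122).

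**Figure D2:**
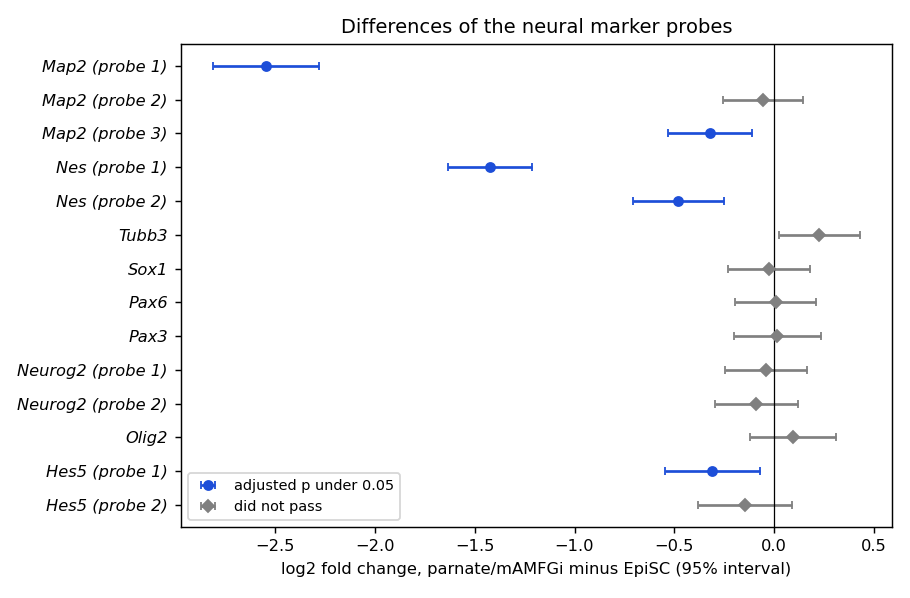
Log2 fold change, parnate/mAMFGi minus EpiSC, of each of the 14 probes with its 95% interval from limma (n = 2 arrays per group). Circles mark the 5 probes called lower and diamonds the 9 that did not pass; the brightest Map2 (-2.55) and Nes (-1.42) probes lie far to the left of the others.

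The promoters of the 3 genes called lower are shown because these genes moved the same way. Each run covers 250 bases before and 50 after an annotated start on the plus strand, from RefSeq on GRCm38.p6, whose promoter table holds an entry for 8 of the 9 genes. The windows are chr1:66175079-66175378 (Map2), chr3:87970843-87971142 (Nes) and chr4:154960673-154960972 (Hes5). Capitals mark GGGCGG (the GC box, on either strand) in Map2 and Nes, and GTGGGAA (a core motif of the Notch mediator RBPJ, on either strand) in Hes5.
Map2: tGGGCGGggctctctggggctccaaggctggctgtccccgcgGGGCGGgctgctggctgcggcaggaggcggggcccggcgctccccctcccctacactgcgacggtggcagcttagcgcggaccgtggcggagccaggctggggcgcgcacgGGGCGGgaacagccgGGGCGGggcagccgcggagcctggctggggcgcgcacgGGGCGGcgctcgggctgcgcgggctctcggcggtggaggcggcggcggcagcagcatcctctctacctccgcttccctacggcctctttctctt
Nes: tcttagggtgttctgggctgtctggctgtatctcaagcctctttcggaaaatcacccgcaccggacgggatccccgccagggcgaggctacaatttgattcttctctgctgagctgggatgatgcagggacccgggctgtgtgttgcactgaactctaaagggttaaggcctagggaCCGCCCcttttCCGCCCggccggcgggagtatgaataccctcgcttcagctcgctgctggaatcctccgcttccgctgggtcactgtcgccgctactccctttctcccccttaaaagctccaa
Hes5: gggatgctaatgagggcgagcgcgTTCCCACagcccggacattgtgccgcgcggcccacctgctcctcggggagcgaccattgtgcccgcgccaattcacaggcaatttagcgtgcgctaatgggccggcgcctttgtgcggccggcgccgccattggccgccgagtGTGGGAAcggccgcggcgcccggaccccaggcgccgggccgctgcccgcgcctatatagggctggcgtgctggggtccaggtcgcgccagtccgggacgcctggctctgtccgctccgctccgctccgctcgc

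All 3 windows hold more CpG dinucleotides than the median promoter. So do those of the markers that did not pass, except Pax3, which has no promoter entry. The Sox1 window holds 37 CpG, Tubb3 26, Olig2 25, Neurog2 10, and the Pax6 windows 18 and 16. The Map2 window holds 37 CpG and the Hes5 window 41, where the median of 32817 promoter windows is 7, and the Nes window holds 18. GGGCGG was found 5 times in Map2, 2 times in Nes and 0 times in Hes5, and 35.6% of all windows hold it at least once. Among markers that did not pass, it was found 3 times in Sox1, 2 times each in Tubb3, Olig2 and Neurog2, and 0 times in Pax6. GTGGGAA was found 2 times in Hes5 and in neither Map2 nor Nes, and 6.39% of all windows hold it. The E-box form CAGNTG, held by 51.4% of windows, was in Hes5 alone among these 3. These matches describe letters in a window, not binding sites.

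Of the early neural fate genes, none separated the groups. Sox1, the earliest specific marker of the neural plate, read 41.6 and 40.7 in parnate/mAMFGi cells, against 39.9 and 44.0 in EpiSCs. Pax6, a paired-box regulator of forebrain and eye progenitors, read 38.6 and 38.7 in parnate/mAMFGi cells, against 37.0 and 39.9 in EpiSCs. The converted values of both lay inside the range of the EpiSC values. Pax3, which acts in the dorsal neural tube and neural crest, read 32.9 and 38.2 in parnate/mAMFGi cells, against 34.2 and 35.9 in EpiSCs. Their log2 fold changes were -0.03 for Sox1 (95% interval -0.23 to 0.18), 0.01 for Pax6 (-0.19 to 0.21) and 0.02 for Pax3 (-0.20 to 0.23), with limma adjusted p-values of 0.883, 0.964 and 0.931. Detection could not be called on these arrays, so neither presence nor absence of the 3 transcripts can be read from such intensities.

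Neurog2, a proneural factor that starts neuronal differentiation, and Olig2, a factor of motor neuron and oligodendrocyte progenitors, also read below the array medians. The brighter Neurog2 probe read 44.6 and 46.3 in parnate/mAMFGi cells, against 48.9 and 44.7 in EpiSCs (log2 fold change -0.04, 95% interval -0.25 to 0.16, limma adjusted p = 0.809). The second Neurog2 probe read 37.4 and 41.2 in parnate/mAMFGi cells, against 40.4 and 43.1 in EpiSCs (log2 fold change -0.09, limma adjusted p = 0.566). On both probes the groups overlapped. Olig2 read 41.9 and 42.1 in parnate/mAMFGi cells, against 42.4 and 36.4 in EpiSCs (log2 fold change 0.10, 95% interval -0.12 to 0.31, limma adjusted p = 0.541). The converted values fell between the EpiSC values.

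Tubb3, the beta-tubulin of neurons and the usual antigen for staining them, was the 1 marker whose converted arrays both read above the EpiSC arrays. It read 47.4 and 47.4 in parnate/mAMFGi cells, against 42.3 and 38.7 in EpiSCs. The log2 fold change of 0.23 (SE 0.09, 95% interval 0.02 to 0.43) did not pass (limma adjusted p = 0.0756). All 4 values lay below the array medians. Tubb3 passed under limma with a trend in the prior variance (adjusted p = 0.0452) and when EpiSC replicate 1 was left out (adjusted p = 0.0427). Its adjusted p spanned 0.0427 to 0.271 over 14 alternatives. Arrays of the groups did not overlap for 3 of 9 markers with converted cells lower, where this held for 30.7% of all genes, and for 1 of 9 with converted cells higher, where it held for 35.5%.

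What the 6 uncalled markers shared was low intensity, although Hes5, which was called, also read near the array medians. At or below the array median on all 4 arrays were 9 of 14 marker probes, which read between 32.9 and 48.9, and 43.1% of all probes. By gene this was 6 of 9, and 40.2% of all genes. The 9 dim probes include the third Map2 probe, which was called lower. They leave out the second Hes5 probe, which did not pass. Log2 fold changes of the 6 genes that did not pass ran from -0.04 to 0.23, and their 95% intervals together reached from -0.25 to 0.43. These bounds are on the scale of deposited intensity, which includes background.

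Of 24 measured relatives of the markers in the same gene families, 4 rose, 9 fell and 11 did not pass in limma. Over all genes 20.2% rose and 21.2% fell. The 11 (Pax2, Pax5, Pax7, Pax8, Olig1, Olig3, Neurog1, Hes3, Tubb1, Tubb2a and Map4) read between 30.5 and 58.9, with log2 fold changes from -0.21 to 0.27. Sox2, a SoxB1 factor shared by pluripotent and neural cells, read 644.4 and 795.0 in parnate/mAMFGi cells, against 228.9 and 223.9 in EpiSCs, a log2 fold change of 1.66 (limma adjusted p = 1.28e-08). Sox3, the third SoxB1 gene beside Sox1 and Sox2, fell by 0.49 on the log2 scale and read 44.9 and 43.2 in parnate/mAMFGi cells, against 58.2 and 65.5 in EpiSCs. Sox2 and Sox3 thus moved in opposite directions, though Sox3 read near the array medians and Sox1 below them. Neurog3, a proneural factor of the endocrine pancreas, rose to 77.9 and 84.3 in parnate/mAMFGi cells, against 37.5 and 40.8 in EpiSCs (log2 fold change 1.05, limma adjusted p = 4.92e-07).

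Beside Tubb3, 7 other beta-tubulin genes were measured, of which 1 rose, 4 fell and 2 did not pass. Tubb2b, a beta-tubulin abundant in developing neurons, read 7708 and 7329 in parnate/mAMFGi cells, against 13799 and 11668 in EpiSCs (log2 fold change -0.76, limma adjusted p = 2.77e-05). Tubb6 fell by 0.94, Tubb4a by 0.74 and Tubb5 by 0.41 on the log2 scale, and Tubb4b rose by 0.68. Of 6 Tubb2b probes, 3 did not pass. A dim second Tubb5 probe went the other way (0.38, limma adjusted p = 0.00769), and the Tubb5 fall did not pass after cyclic loess (limma adjusted p = 0.0704). Beta-tubulins are close paralogs that a probe may not separate. Vim, the intermediate filament partner of nestin, read 2132 and 1833 in parnate/mAMFGi cells, against 2640 and 2493 in EpiSCs. Its log2 fold change was -0.38 (limma adjusted p = 0.00802), and the call was lost without parnate/mAMFGi replicate 2 (limma adjusted p = 0.161) and after normexp correction with offset 16 (adjusted p = 0.0793).

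Among microtubule-associated proteins, the fall of Map2 was shared by Map1b and opposed by Mapt. Map1b, a MAP of growing axons, read 168.1 and 160.1 in parnate/mAMFGi cells, against 344.7 and 290.7 in EpiSCs (log2 fold change -0.95, limma adjusted p = 2.89e-06). Mapt, which encodes the axonal protein tau, read 220.7 and 206.7 in parnate/mAMFGi cells, against 56.9 and 65.2 in EpiSCs (log2 fold change 1.81, limma adjusted p = 2.35e-09). The groups did not overlap for either gene. Each has 4 probes, and 3 dim Map1b probes and 2 dim Mapt probes did not pass. Of 22 measured tubulins and microtubule-associated proteins, 6 rose, 8 fell and 8 did not pass, with a median log2 fold change of 0.02. The shares of all genes that rose and fell were 20.2% and 21.2%. Mapre2, a microtubule end-binding protein, fell by 1.16 on the log2 scale, and Tuba4a and Map1s rose by 1.08 and 0.95.

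Neuronal genes went both ways. Of 30 measured, 9 rose, 11 fell and 10 did not pass in limma, with a median log2 fold change of -0.07, where over all genes 3360 rose and 3518 fell of 16593. Eno2, the neuronal enolase, read 65.1 and 61.7 in parnate/mAMFGi cells, against 332.3 and 368.9 in EpiSCs (log2 fold change -2.47, limma adjusted p = 6.80e-11). Nefm, the medium neurofilament chain, read 56.2 and 50.4 in parnate/mAMFGi cells, against 245.9 and 246.5 in EpiSCs (-2.21). In converted cells both read near the array medians. Syp, the synaptic vesicle protein synaptophysin, read 63.9 and 58.4 in parnate/mAMFGi cells, against 273.7 and 236.6 in EpiSCs (-2.06). Nefh, the heavy neurofilament chain, rose instead, to 163.5 and 148.8 in parnate/mAMFGi cells, against 41.9 and 45.5 in EpiSCs (log2 fold change 1.84, limma adjusted p = 1.51e-09). Ina, the neurofilament partner alpha-internexin, likewise rose by 1.14 on the log2 scale. Neurofilament genes thus moved in opposite directions between the same cells.

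Within the 30, 8 genes were set down as markers that define neurons (Dcx, Rbfox3, Elavl3, Elavl4, Syp, Syt1, Snap25 and Stmn2), with earlier results of these data known. Of these 7 fell, where 21.2% of all genes did, and Snap25 did not pass (log2 fold change 0.22, limma adjusted p = 0.104). Without parnate/mAMFGi replicate 2, limma called 4 of the 8 lower, and the linear model without moderation called 0. Of the other 22 neuronal genes, 9 rose, 4 fell and 9 did not pass, so the fall was not general to the list. The 8 genes' summed intensity was 1249 and 1374 in parnate/mAMFGi cells, against 4187 and 3519 in EpiSCs. Without Stmn2 the sum was 317.3 and 308.6 in parnate/mAMFGi cells, against 621.1 and 547.9 in EpiSCs. Of that sum, Syp alone gave 63.9 and 58.4 in parnate/mAMFGi cells, against 273.7 and 236.6 in EpiSCs. Stmn2, a growth-associated microtubule destabiliser, read 931.6 and 1065 in parnate/mAMFGi cells, against 3566 and 2971 in EpiSCs (log2 fold change -1.71, limma adjusted p = 1.18e-08). Dcx, a marker of young neurons, read 42.6 and 39.2 in parnate/mAMFGi cells, against 58.6 and 51.9 in EpiSCs (log2 fold change -0.43, limma adjusted p = 0.00270). The Dcx call was lost without parnate/mAMFGi replicate 2 (limma adjusted p = 0.0685), and 2 other Dcx probes did not pass. In parnate/mAMFGi cells Rbfox3, Elavl3, Elavl4 and Syt1 also read below the array medians. In EpiSCs they read between 44.3 and 79.8, with log2 fold changes of -0.34, -0.61, -0.53 and -0.42. In these bulk samples, fewer cells of a type and less RNA per cell cannot be told apart.

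**Figure D3:**
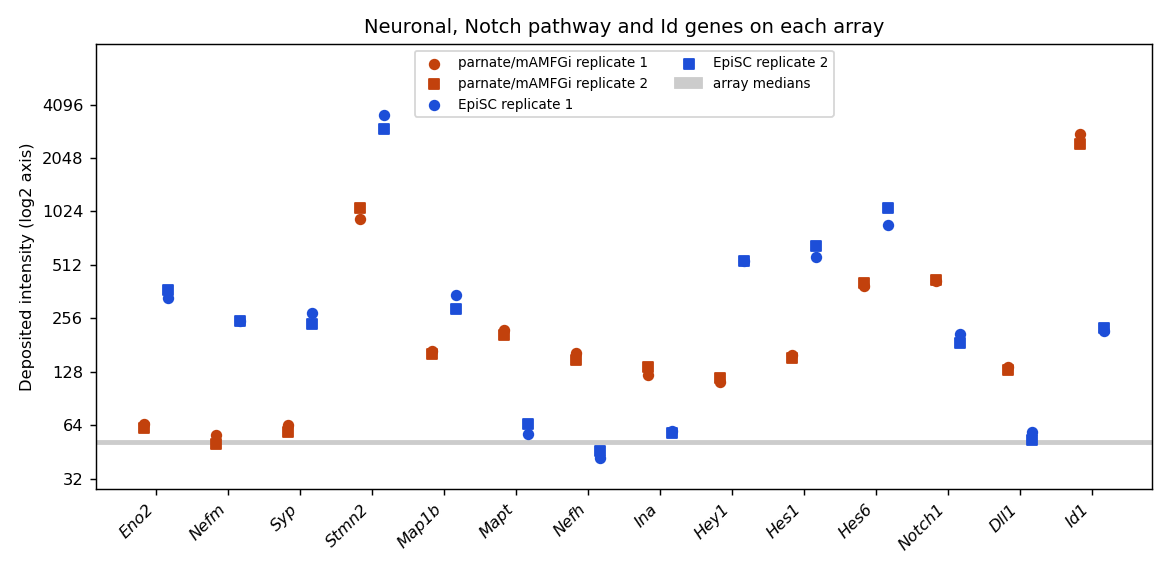
Deposited intensity (log2 axis) of 14 neuronal, microtubule, Notch pathway and Id genes by their brightest probe on the 2 parnate/mAMFGi arrays (orange, left) and the 2 EpiSC arrays (blue, right), with the array medians in grey. Eno2, Nefm, Syp, Stmn2, Map1b, Hey1, Hes1 and Hes6 read lower in parnate/mAMFGi cells, and Mapt, Nefh, Ina, Notch1, Dll1 and Id1 higher.

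Of the other Hes and Hey genes, Hes1, Hey1, Hes6 and Hey2 fell, and Hes3 and Heyl read below the array medians and did not pass. Hes1, a Hes factor expressed in many tissues, read 159.5 and 152.7 in parnate/mAMFGi cells, against 564.2 and 658.0 in EpiSCs (log2 fold change -1.97, SE 0.10, limma adjusted p = 1.09e-09). Hey1, a Hes-related Notch target, read 111.9 and 118.4 in parnate/mAMFGi cells, against 539.1 and 537.2 in EpiSCs (-2.23). Hes6, which antagonises Hes1, read 387.6 and 403.0 in parnate/mAMFGi cells, against 862.1 and 1077 in EpiSCs (-1.29), and all 3 of its probes fell. No array of one group reached the range of the other for these 3 genes. Hey2 read 41.9 and 37.2 in parnate/mAMFGi cells, against 57.3 and 55.0 in EpiSCs (log2 fold change -0.51, limma adjusted p = 0.000633), and its second probe did not pass. Upstream, the receptor gene Notch1 read 415.1 and 422.5 in parnate/mAMFGi cells, against 208.4 and 187.0 in EpiSCs (1.09), and the ligand gene Dll1 read 135.9 and 131.3 in parnate/mAMFGi cells, against 58.5 and 53.0 in EpiSCs (1.26). Other receptor and ligand genes went both ways. The ligand genes Jag1 and Jag2 rose by 0.51 and 0.32 on the log2 scale (limma adjusted p = 0.000523 and 0.0133). Notch4 fell by 0.75 and Dll3 by 1.03 on the log2 scale, and Notch2, Notch3 and Dll4 did not pass. A dim second Notch4 probe did not pass. Id1, an inhibitor of proneural factors, rose by 3.56 on the log2 scale, and Id3 and Id2 rose by 2.11 and 2.10. Of 31 measured proneural and Notch genes, 11 rose, 7 fell and 13 did not pass, with a median log2 fold change of 0.05. The shares of all genes that rose and fell were 20.2% and 21.2%.

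Of 31 measured genes of neural progenitors, mostly transcription factors, 4 rose, 7 fell and 20 did not pass. Among all genes 20.2% rose and 21.2% fell. At or below the array median on all 4 arrays were 16 of the 31, where 40.2% of all genes were. Gbx2, a hindbrain factor that also acts in pluripotent cells, fell by 1.84 on the log2 scale and Otx1 by 0.74, while Sox2 rose by 1.66 and Pou3f1 by 1.19. Of 8 measured members of the REST group, the repressor of neuronal genes and its partners, 3 rose, 2 fell and 3 did not pass. Rest itself read 42.0 and 43.4 in parnate/mAMFGi cells, against 42.5 and 40.9 in EpiSCs, which is below the array medians. Hdac1 rose by 0.94, Rcor2 by 0.70 and Ctdsp1 by 0.51 on the log2 scale, and Hdac2 and Kdm1a, which encodes the parnate target LSD1, fell by 0.63 and 0.46.

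**Figure D4:**
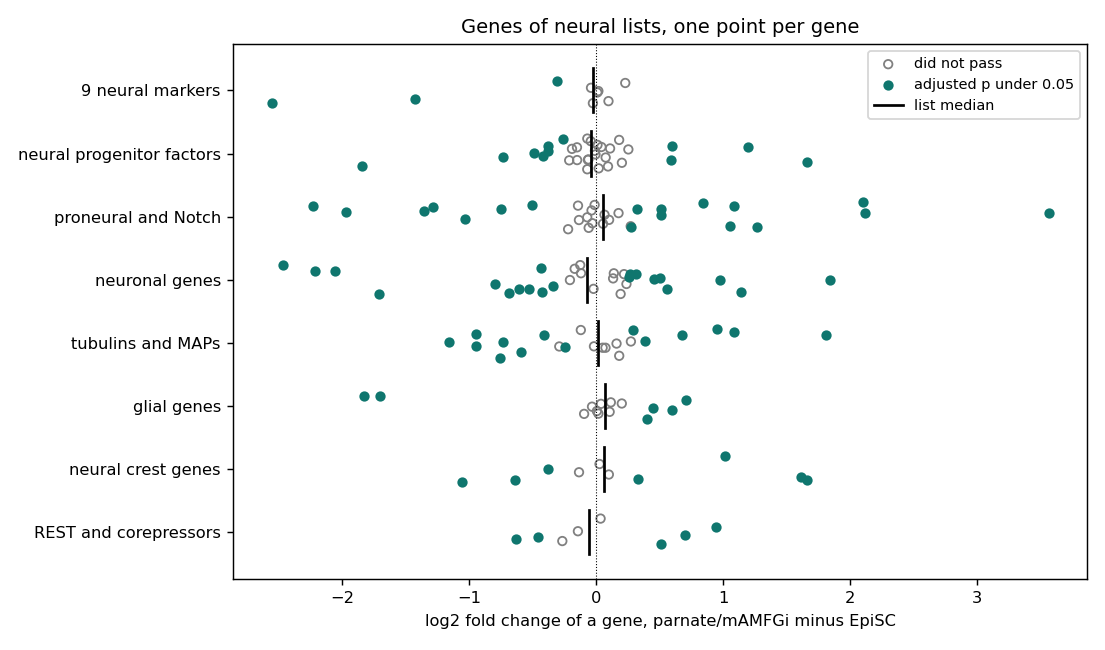
Log2 fold change, parnate/mAMFGi minus EpiSC, of each gene in the neural marker set and 7 related lists, with 1 point per gene at its brightest probe (filled, adjusted p under 0.05 in limma; open, did not pass) and the list median as a bar. All 8 medians lie within -0.07 to 0.07, while single genes spread to both sides.

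Glial and neural crest genes gave the same mixed picture. Of 14 measured glial genes, 4 rose, 2 fell and 8 did not pass. Among all genes 20.2% rose and 21.2% fell. Slc1a3, a glutamate transporter of astrocytes and radial glia, read 228.8 and 231.0 in parnate/mAMFGi cells, against 709.0 and 788.4 in EpiSCs (log2 fold change -1.70, limma adjusted p = 2.82e-09). Mbp, the myelin basic protein gene, fell by 1.83 on its brightest probe, and 2 dim probes did not pass. Pdgfra and Nkx2-2 rose by 0.70 and 0.60. Of 10 neural crest genes, 4 rose, 3 fell and 3 did not pass. Msx1 rose by 1.66, the neurotrophin receptor gene Ngfr by 1.61 and Tfap2a by 1.01 on the log2 scale, and Ets1 fell by 1.06.

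Markers of the fibroblast feeder cells moved as well. Of 14 measured, 9 rose, 2 fell and 3 did not pass in limma, where 20.2% of all genes rose and 21.2% fell. The median log2 fold change of the 14 was 0.90. Their summed intensity, which includes background, was 12876 and 12437 in parnate/mAMFGi cells, against 13562 and 9822 in EpiSCs. Lox read 1150 and 1077 in parnate/mAMFGi cells, against 65.2 and 53.7 in EpiSCs, whereas Thy1 fell by 1.04 and Mmp2 by 1.68 on the log2 scale. The part of feeder cells in the Map2 and Nes results was not tested.

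The genes whose pattern over the 4 arrays was most like that of Map2 were Gbp2, Tmx4 and Zfp334. Likeness was the Euclidean distance between log2 profiles centred on their own means, which was 0.0960, 0.115 and 0.140 for these genes. Gbp2, an interferon-induced GTPase gene, read 168.1 and 174.0 in parnate/mAMFGi cells, against 1229 and 928.4 in EpiSCs. As in Map2, the first EpiSC array was above the second in all 3. For Nes the nearest genes were Frmd4b, Tmem184a and Tceal5, at distances of 0.0188, 0.0346 and 0.0447 and with log2 fold changes of -1.42, -1.40 and -1.41. With 4 arrays in 2 groups, the distance rests mainly on the size of the difference between groups.

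The nearest measured genes on the chromosome were examined after the marker values were known, and 1 of 6 beside Map2 and 0 of 6 beside Nes fell. Of all genes, 21.2% fell and 20.2% rose. Of the 3 genes on each side of Map2 (Pikfyve, Pth2r, Crygf, Unc80, Kansl1l and Acadl), Acadl alone passed, reading 93.9 and 83.1 in parnate/mAMFGi cells, against 282.9 and 285.0 in EpiSCs (log2 fold change -1.68, limma adjusted p = 3.66e-09). It is the farthest of the 3 on its side, and a dim Acadl probe did not pass (log2 fold change -0.02, limma adjusted p = 0.897). Beside Nes, Crabp2, Isg20l2 and Gpatch4 rose by 0.44, 0.34 and 0.68 on the log2 scale, and Rrnad1, Bcan and Hapln2 did not pass. The Isg20l2 call was lost with common median scaling (limma adjusted p = 0.0657) and without EpiSC replicate 2 (0.264), parnate/mAMFGi replicate 1 (0.122) or parnate/mAMFGi replicate 2 (0.222).

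**Figure D5:**
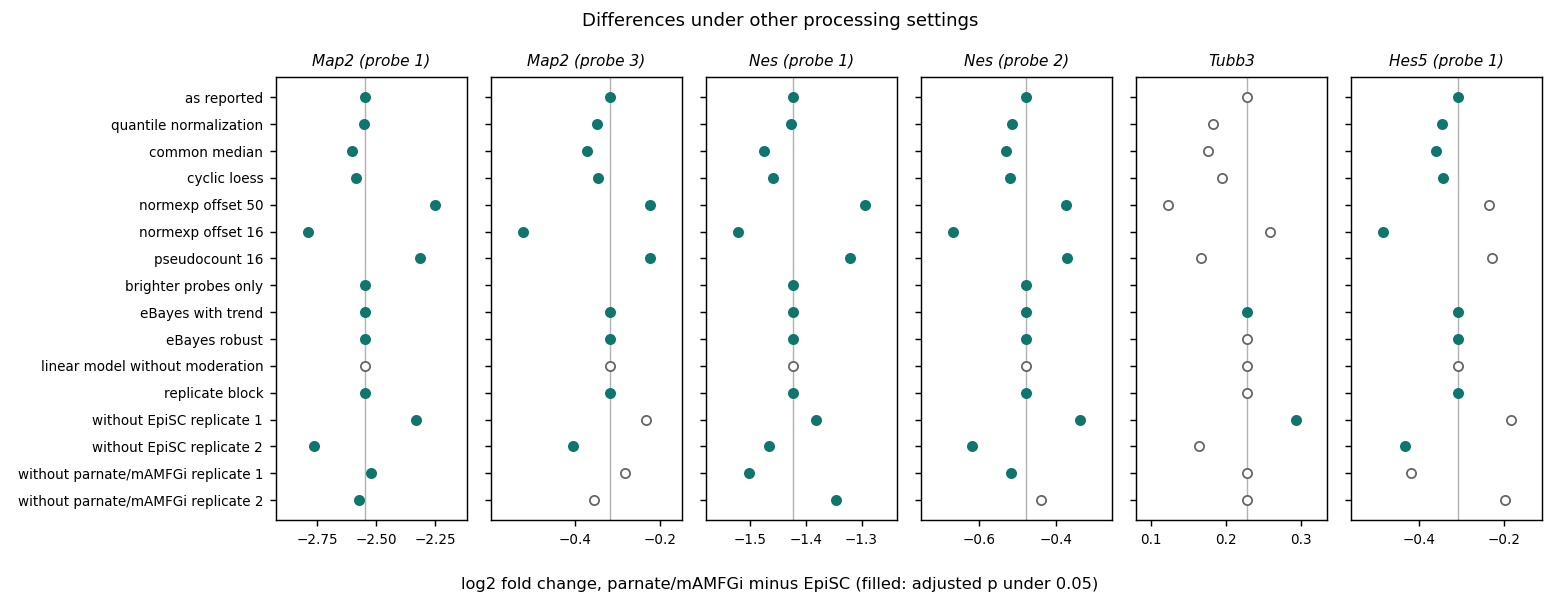
Log2 fold change, parnate/mAMFGi minus EpiSC, of the 5 called marker probes and Tubb3 as reported and under each other setting (filled, adjusted p under 0.05), with a separate horizontal scale per probe and no point where a dim probe was filtered out. The brightest Map2 and Nes probes keep their call in every setting but the linear model without moderation, and Hes5 loses it in 6 of 14.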

How the data were processed

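RNA from 2 parnate/mAMFGi and 2 EpiSC samples was hybridised to Illumina mouse bead arrays after biotin cRNA synthesis with the TotalPrep kit, per the labels' protocols. The deposited values are intensities on a linear scale, already processed by the authors, with nearly equal quartiles on the 4 arrays. Which software, correction or scaling lies behind them is not given in the sources used here. A second table of signals before normalization has 8 columns whose names match no label, and it was left out, so detection was not assessed. Log2 intensities of all 25697 probes were fitted without a filter or block in limma 3.58.1 (R 4.3.3), with Benjamini-Hochberg adjustment and a threshold of 0.05. With 2 residual and 11.8 prior degrees of freedom (prior SD 0.0992, log2 scale), the number of arrays limits the precision. The fit was tested on data simulated from its own fitted variances, which cannot show whether that model holds for these arrays. Symbols came from the platform annotation (23978 probes with 1 symbol, 1719 with none), and all 9 markers matched the RefSeq table of GRCm38.p6. Members and lists were chosen with earlier results of these data known. Named genes are the 9 markers, up to 4 called genes of each list with the largest change, family relatives, and the 3 nearest patterns of called markers that changed at least 2-fold. A further 15 called genes were named after their values were seen (Stmn2, Ina, Notch1, Dll1, Dcx, Kdm1a, Thy1, Mmp2, Acadl, Crabp2, Isg20l2, Gpatch4, Dll3, Notch4 and Hey2), as was Pou5f1. Several probes measured 24 of these other genes, and for 14 of the 24 some probe did not pass. Jag1 and Jag2 were also named after their values were seen, and the counts of named genes leave them out. The labels do not say that a replicate number pairs samples, so the numbers were not taken as pairs. Deviations of arrays with the same replicate number correlated at -0.0574. With 2 arrays per group, both numbers give the same value, which cannot decide whether they pair. Some listed genes were not analysed here.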

Additional observations from a re-analysis of the deposited data

How the results depend on the processing

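Calls of Map2 and Nes by the brightest probe kept their direction in all 15 alternatives and passed in 14, with log2 fold changes from -2.79 to -2.25 (Map2) and from -1.52 to -1.29 (Nes). The exception was the linear model without moderation, where adjusted p-values were 0.0635 and 0.0531, 0 markers were called lower, and 806 probes were called lower and 812 higher, against 4801 and 5069 in limma. It has 2 residual degrees of freedom. One marker, Tubb3, was called higher (1 in place of 0) by limma with a trend. Leaving out 1 array in turn gave 2 to 3 markers lower and 0 to 1 higher, and 3753 to 4755 probes lower and 3737 to 4870 higher. Of markers that did not pass, Pax6 changed sign with quantile normalization (-0.022), common median scaling (-0.044), cyclic loess (-0.019) and normexp correction with offset 50 (-0.014) or 16 (-0.032). Pax3 changed sign with common median scaling (-0.035), cyclic loess (-0.0046) and offset 16 (-0.00076). Leaving out 1 array moved Pax6 from -0.046 to 0.063, Pax3 from -0.091 to 0.12, Sox1 from -0.097 to 0.044, the brighter Neurog2 probe from -0.11 to 0.024 and Olig2 from -0.014 to 0.21. None of these passed, and the cause was not tested. With the replicate number as a block, 3 markers were lower and 0 higher, 4828 probes were lower and 5084 higher, and no marker call changed; deviations of same-numbered arrays correlated at -0.0574. The filter on brighter probes removed the dim marker probes from the test. Of 72 other called genes that are named, Jag1 and Jag2 aside, 49 lost their call in the linear model without moderation. Elsewhere calls were lost for Tubb5 (cyclic loess), Vim (offset 16, and without parnate/mAMFGi replicate 2), Dcx (without parnate/mAMFGi replicate 2) and Isg20l2 (common median scaling, and without each of 3 arrays in turn), and for no other of these genes in the settings run. Signal over background limits the reading of the markers near the array medians.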
